A study of Mus musculus with 6 samples.

Results

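37 marker genes of the germ layers, the trophectoderm and the neural lineages were followed in mouse embryonic stem (ES) cells, of 22602 genes in the table. They were taken from a given list of symbols. 35 were found under the given symbol, and Tfap2c and Map2 were found under their older symbols Tcfap2c and Mtap2. The members were grouped as 5 genes of the primitive streak, 5 of mesoderm, 2 of the posterior axis, 10 of endoderm, 4 of trophectoderm, 7 of neural progenitors and 4 of neurons. The questions were which of these markers were detectable, and whether any lineage differed in level between Sim2-expressing clones and their parental line.

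The 6 libraries came from mouse ES cells kept 26 h without tetracycline. The clones A6, B8 and C4 gave 3 of them, and in these clones a Flag-tagged mouse Sim2 with a Venus reporter is driven by a tetracycline-repressed CMV promoter, with 1 culture per clone. The other 3, EB3-0, EB3-1 and EB3-2, came from separate cultures of the parental line EB3 (EBRTcH3), which lacks the Sim2 transgene but carries the transactivator and the Venus reporter. All cells were cultured with serum and LIF, the cytokine that holds mouse ES cells in the pluripotent state, and the methods describe no differentiation step. P-values measure the spread among 3 clones and among 3 cultures of 1 line. All 6 libraries were without tetracycline, so Sim2 expression and other differences between the clones and EB3 cannot be told apart.

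Depth ranged from 25095861 to 28269340 reads per library, so that 1 read in a cDNA of 2 kb was worth at most 0.0199 RPKM (reads per kilobase of cDNA, scaled to the total reads of the library). Sim2 itself was at 168 to 212 RPKM in the clones and at 0.0917 to 0.13 RPKM in EB3, as labelled. All 8 pluripotent cell markers examined were detected, at a summed 5923 to 7632 RPKM in each library, while only 4 of 10 fibroblast markers were detected, at a summed 13.5 to 17.9 RPKM, with Lum and Postn listed at 0 in every library. The pluripotent markers had a median log2 fold change of -0.16 (Sim2 minus EB3) with none called. Zfp42 (-0.31) and Tdgf1 (-0.21) were lower in each clone than in each EB3 culture. This held for 2 of 8 markers, against 13.4% of all genes with a mean of at least 1 RPKM. Nanog (0.10), Dppa5a (0.13) and Fgf4 (0.14) had fold changes above 0. B8 and EB3-0 stood apart from the rest. Of the 11595 genes with a mean of at least 1 RPKM, 326 in B8 and 213 in EB3-0 lay more than 1 log2 unit from the median of the other 5 libraries, against 51 to 60 in each other library. EB3-0 also differed from EB3-1 and EB3-2 by cDNA length, with a median log2 difference of 0.30 for cDNAs under 1500 bases and of -0.32 for those of 5000 to 7000 bases.

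During gastrulation, epiblast cells pass through the primitive streak to become mesoderm and definitive endoderm, while the cells that stay outside the streak give rise to ectoderm, including the neural plate. Trophectoderm and primitive endoderm separate earlier, in the blastocyst, and form the placenta and the yolk sac. Cultured ES cells are the counterpart of the pluripotent epiblast, and most lineage regulators are silent or weakly transcribed in them. Because the RNA came from whole cultures, few cells with much of a marker transcript and many cells with little of it cannot be told apart.

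The start sites of 26 members could be examined in 33 promoters of 300 bases from RefSeq (GRCm38.p6), each of which occurred once in mm9, the build used for all coordinates. Nes and Kdr are shown because they were the members above 1 RPKM whose clone values all lay above the EB3 values. Cdx2 and Sox1 are shown because theirs were the member promoters with an octamer, the sequence bound by POU-domain factors such as OCT4. Capitals mark ACGTG, the core of the element bound by SIM2 with ARNT, and the octamer ATTTGCAT, each searched on both strands, so that CACGT and ATGCAAAT are matches on the other strand. Each window runs 5′ to 3′ along the gene, with the start site at base 251.
Nes, chr3:87774765-87775064, plus strand: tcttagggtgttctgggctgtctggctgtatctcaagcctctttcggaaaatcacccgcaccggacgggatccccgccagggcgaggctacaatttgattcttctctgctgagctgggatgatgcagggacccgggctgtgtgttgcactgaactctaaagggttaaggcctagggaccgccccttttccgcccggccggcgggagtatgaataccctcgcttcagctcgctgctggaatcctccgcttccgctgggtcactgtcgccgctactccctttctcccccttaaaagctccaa
Kdr, chr5:76374431-76374730, minus strand: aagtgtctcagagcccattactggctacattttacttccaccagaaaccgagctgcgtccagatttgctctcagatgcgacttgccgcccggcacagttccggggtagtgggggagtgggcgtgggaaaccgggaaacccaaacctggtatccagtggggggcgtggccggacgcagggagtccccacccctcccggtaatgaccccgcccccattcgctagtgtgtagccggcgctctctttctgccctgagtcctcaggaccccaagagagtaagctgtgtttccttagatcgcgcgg
Cdx2, chr5:148118776-148119075, minus strand: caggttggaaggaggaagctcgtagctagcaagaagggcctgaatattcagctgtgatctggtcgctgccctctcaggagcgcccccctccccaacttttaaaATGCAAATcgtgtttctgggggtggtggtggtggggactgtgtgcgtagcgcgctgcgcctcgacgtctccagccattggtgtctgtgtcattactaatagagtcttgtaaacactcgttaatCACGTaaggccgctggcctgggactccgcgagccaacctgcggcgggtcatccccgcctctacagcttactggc
Sox1, chr8:12395269-12395568, plus strand: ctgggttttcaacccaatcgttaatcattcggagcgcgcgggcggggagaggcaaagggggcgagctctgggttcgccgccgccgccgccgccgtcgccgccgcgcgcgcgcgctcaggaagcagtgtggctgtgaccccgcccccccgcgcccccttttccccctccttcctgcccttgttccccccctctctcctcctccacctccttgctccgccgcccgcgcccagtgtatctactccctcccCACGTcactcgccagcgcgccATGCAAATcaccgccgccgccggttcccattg
The windows of Nes and Kdr held neither motif, whereas those of Cdx2 and Sox1 each held 1 match to ACGTG and 1 to the octamer. Over the 26 members with a window, some of them with more than 1, ACGTG was found in 5 of 33 promoters (15.2%), against 19.6% of the 32851 promoters in the table. The octamer was found in 2 (6.1%), against 1.7% of all promoters. These matches describe the letters of the window and say nothing of binding.

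The lineage markers were divided between transcripts that were detectable in every library and transcripts with a few reads. Taking at least 10 reads in each of the 6 libraries as detection, 19 of 37 members (51.4%) were detected, against 58.2% of all genes. None was listed at 0 in all 6 libraries, where 20.5% of all genes were. 14 members (37.8%) reached a mean of 1 RPKM, against 51.3% of all genes, and only Tfap2c and Neurod1 passed 10 RPKM in the mean while being detected. The detected share was highest for neural progenitor markers (5 of 7). It was 5 of 10 for endoderm, 2 of 5 for both primitive streak and mesoderm, 2 of 4 for both trophectoderm and neurons, and 1 of 2 for the posterior axis. A lower limit of 4 reads gave 26 members and a higher limit of 30 reads gave 15.

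**Figure D1:**
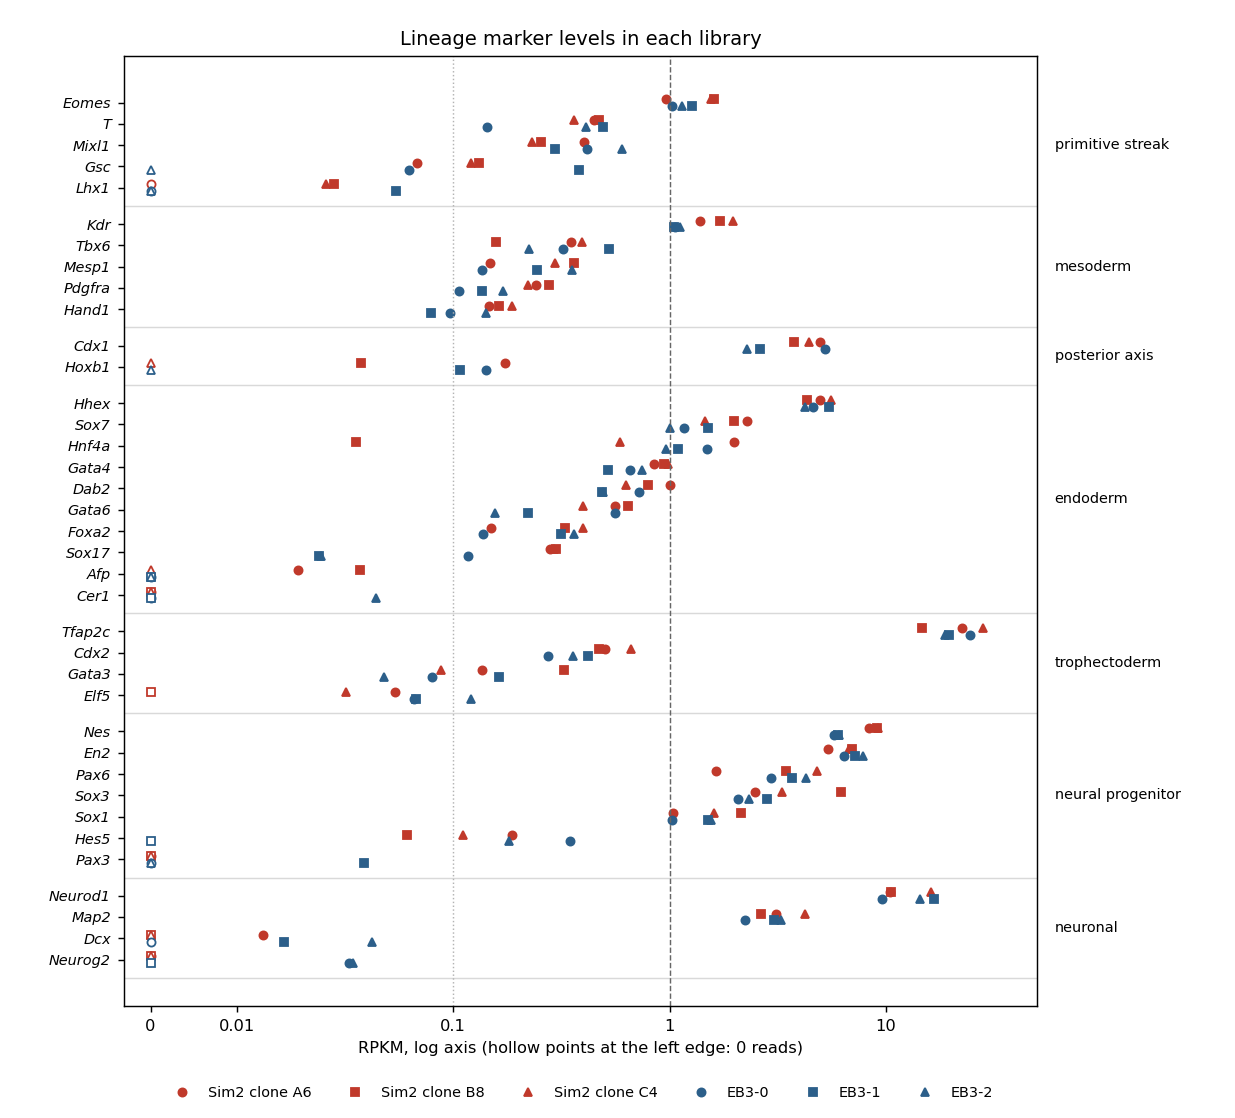
RPKM of the 37 members on a log axis, grouped by lineage, with 1 point per library (red for the Sim2 clones, blue for EB3, hollow points at the left edge for 0 reads). The vertical lines stand at 0.1 and 1 RPKM, and Tfap2c and Neurod1 are the members whose means lie above 10 RPKM.

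By mean RPKM over the 6 libraries, the order of the members was led by Tfap2c at 21.3, Neurod1 at 12.9, Nes at 7.38, En2 at 6.75 and Hhex at 4.85. The values of Nes and En2 overlapped between libraries (5.75 to 9.15 and 5.37 to 7.83 RPKM), so these neighbours were not separated beyond their spread. Cdx1 at 3.87, Pax6 at 3.46, Sox3 at 3.19 and Map2 at 3.08 RPKM followed, and their ranges also overlapped. Sox7, Sox1, Kdr, Eomes and Hnf4a had means between 1.03 and 1.56 RPKM. Thus 7 of the 14 members with a mean of at least 1 RPKM were neural progenitor or neuronal genes.

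No member passed the test between the Sim2 clones and EB3. Among the 14 members with a mean of at least 1 RPKM, 0 were called by limma at an adjusted p under 0.05, where 0.699% of the 11595 genes tested were called. At an unadjusted p under 0.05 there were 3 (Nes, Kdr and Sox7), where 17.8% of all tested genes were. Among the 15 members with a mean of 0.1 to 1 RPKM, fitted on log2(RPKM + 0.1), 0 were called, where 0.163% of the 3067 genes of that range were. At an unadjusted p under 0.05 there was 1 (Sox17), where 13.6% of these genes were. The remaining 8 members lay under 0.1 RPKM in the mean and were not tested. The 95% intervals of the fold changes had a median width of 0.975 log2 units in the first set and 1.67 in the second, so differences well inside these widths could not be resolved.

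The 3 clones all lay above the 3 EB3 cultures in 2 of the 14 better expressed members (Nes and Kdr), where 12.7% of all tested genes did so. In the lower range this held for 5 of 15 (Sox17, Gata4, Pdgfra, Cdx2 and Hand1), where 8.15% of genes did so. Hand1 had 7 reads in both A6 and EB3-2, so its groups were apart only after scaling to the total reads. The clones all lay below EB3 in 0 of 14 and 0 of 15 members, where the shares of all genes were 13.4% and 12.2%. The median log2 fold change was 0.16 for the 14 members, against -0.006 for all tested genes, and 0.38 for the 15 members, against -0.064 for all genes of their range. Fold changes were above 0 in 10 of 14 and 12 of 15 members, against 49.1% and 45.4% of genes. These counts describe the members, which share libraries and are not replicates. Sox17 and Gata3 had EB3 means of 0.0552 and 0.0968 RPKM, so they passed the filter of 0.1 RPKM only through the clones. In the other direction, Hnf4a had a clone mean of 0.871 RPKM and passed 1 RPKM only through EB3. The part of these genes in the counts is not independent of their difference.

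**Figure D2:**
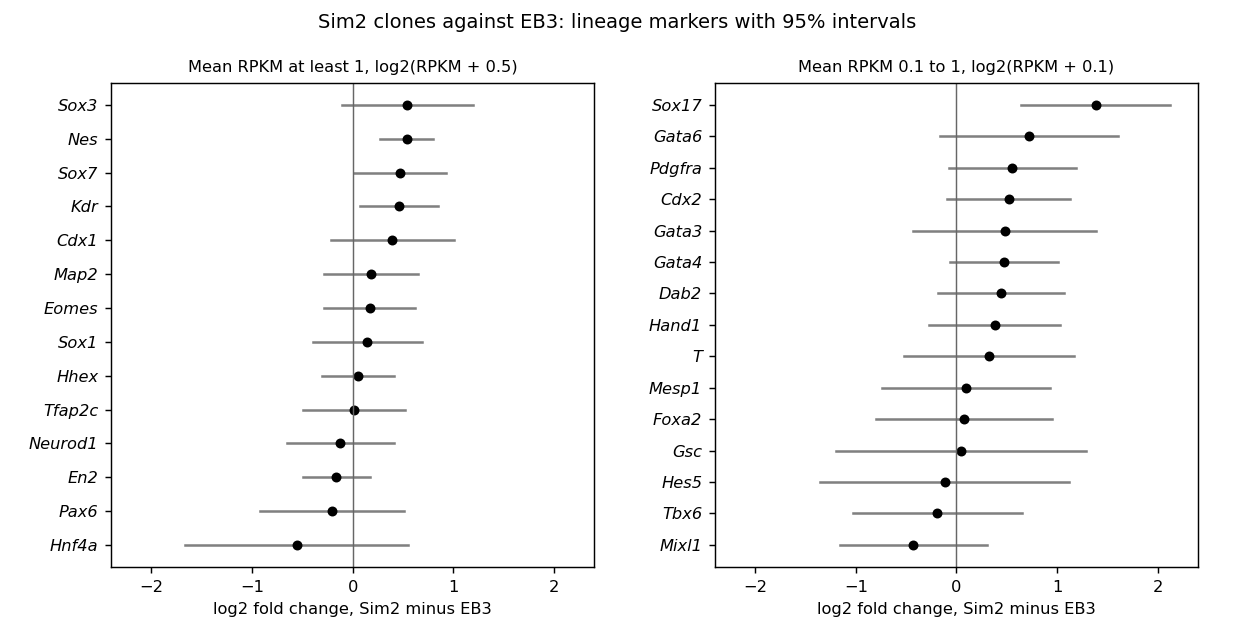
Log2 fold change (Sim2 minus EB3) of the 29 fitted members with 95% intervals from limma, on the left for means of at least 1 RPKM and on the right for means of 0.1 to 1 RPKM. Intervals of Nes, Kdr, Sox7 and Sox17 lie above 0 before adjustment for multiple tests, and those of the other 25 include 0.

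Nes, which encodes the intermediate filament protein nestin of neural stem cells, had the lowest adjusted p of the members (chromosome 3, 87775015 to 87784373). It was at 8.30, 9.06 and 9.15 RPKM in clones A6, B8 and C4, and at 5.75, 6.01 and 6.03 RPKM in EB3-0, EB3-1 and EB3-2. The clones and the EB3 cultures did not overlap, and among the 14 members Nes had the smallest spread within groups (SD of 0.057 on the log2 scale). Its mean was 8.84 ± 0.466 RPKM in the clones and 5.93 ± 0.158 in EB3 (SD, n = 3 each). On the log2 scale the fold change was 0.54 ± 0.11 (SE), with a 95% interval of 0.28 to 0.80. By limma the adjusted p was 0.0787. A 2-sided exact permutation test returned 0.1, below which 3 against 3 libraries cannot go. Without EB3-0, Nes was called with a fold change of 0.52 (adjusted p = 0.0396, within a range of 0.0396 to 0.290 over the settings tried), in a setting that called 5.99% of all tested genes. With each library's trend with cDNA length removed, the fold change was 0.44 (adjusted p = 0.0695), and with the trends with length and GC content both removed it was 0.32 (adjusted p = 0.114).

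No other neural progenitor gene had groups that lay apart. Sox1 and Sox3 encode SOXB1 factors of the neural plate. Sox3 was at 2.47, 6.17 and 3.29 RPKM in clones A6, B8 and C4, and at 2.08, 2.81 and 2.34 RPKM in EB3. B8 alone was high, 1.17 log2 units above the median of the other 5 libraries, while A6 lay inside the EB3 range, and the fold change was 0.54 (interval -0.11 to 1.20, adjusted p = 0.365). Without B8 it was 0.21. Sox1 was at 1.04, 2.13 and 1.60 RPKM in A6, B8 and C4 and at 1.03, 1.51 and 1.55 RPKM in EB3, with overlapping groups and a fold change of 0.15 (interval -0.40 to 0.69). Gm5607 is listed on the same strand across Sox1, so reads of these 2 genes could not be told apart.

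Pax6, a homeobox gene of forebrain and eye, was at 1.64, 3.44 and 4.79 RPKM in clones A6, B8 and C4, against 2.93, 3.67 and 4.28 RPKM in EB3. The 3 clones spread wider than the EB3 cultures and lay on both sides of them, and the fold change was -0.21 (interval -0.92 to 0.51). En2, a homeobox gene of the boundary between midbrain and hindbrain, was at 5.37, 6.97 and 6.73 RPKM in the clones and at 6.41, 7.21 and 7.83 RPKM in EB3. The groups overlapped, with a fold change of -0.16 and an interval of -0.50 to 0.17. Hes5, a target of Notch signalling in neural progenitors, had 0 to 12 reads per library, and Pax3, a gene of the dorsal neural tube, had 4 reads in EB3-1 and 0 in the other 5 libraries. If reads are taken as independent, a count of 0 allows up to 0.0309 RPKM of Pax3 in each clone, and more if mates were counted apart.

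Of the neuronal markers, Neurod1 and Map2 were detected in every library, while Neurog2 and Dcx were nearly absent. Neurod1, a bHLH factor of differentiating neurons and endocrine cells, was at 10.4, 10.6 and 16.1 RPKM in clones A6, B8 and C4, and at 9.58, 16.7 and 14.4 RPKM in EB3. Low and high values occurred in both groups, and the fold change was -0.12 (interval -0.65 to 0.41). Map2, which encodes a microtubule-associated protein of dendrites, was at 3.11, 2.64 and 4.22 RPKM in the clones and at 2.23, 3.04 and 3.26 RPKM in EB3, with a fold change of 0.19 (interval -0.28 to 0.65). Neurog2, a proneural bHLH factor that acts ahead of Neurod1, had 0 reads in each clone and 2, 0 and 2 in EB3, and Dcx, a microtubule-associated protein of migrating neurons, had at most 10 reads in a library. Neurod1 was thus abundant in libraries with few or no reads of Neurog2 and Dcx.

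Sox17 had the highest fold change of the 15 members of the lower range, all on the log2(RPKM + 0.1) scale. It encodes an HMG-box factor of definitive and primitive endoderm. Sox17 (chromosome 1, 4481009 to 4486494) was at 0.280, 0.298 and 0.294 RPKM in A6, B8 and C4. In EB3-0, EB3-1 and EB3-2 it was at 0.117, 0.0239 and 0.0245 RPKM. In reads these were 22, 24 and 26 against 10, 2 and 2, so the clones were alike and the EB3 values were near the limit of detection. The fold change on the log2(RPKM + 0.1) scale was 1.38 ± 0.33 (SE) with an interval of 0.64 to 2.13 (limma, adjusted p = 0.103), and the exact permutation p was 0.1. It was called without EB3-0, at 1.65 (adjusted p = 0.042, within a range of 0.042 to 0.330 over the settings tried), where 0.456% of the 3067 genes were called. It was 0.51 with a pseudocount of 0.5 and 2.27 with one of 0.02. All clones were also above EB3 for Gata4, a zinc-finger factor of extraembryonic endoderm and heart, at 0.846, 0.938 and 0.980 RPKM against 0.659, 0.518 and 0.745. Its fold change was 0.47 with an interval of -0.07 to 1.01 (adjusted p = 0.356).

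Gata6, Sox7 and Dab2 are, like Gata4 and Sox17, genes of primitive endoderm, the first encoding a zinc-finger factor, the second an HMG-box factor and the third an endocytic adaptor. Sox7 was at 2.28, 1.97 and 1.45 RPKM in clones A6, B8 and C4 and at 1.17, 1.50 and 1.01 RPKM in EB3, with C4 and EB3-1 overlapping. Its fold change was 0.47 (interval 0.02 to 0.93, adjusted p = 0.268). Gata6 was at 0.561, 0.644 and 0.399 RPKM in the clones and at 0.562, 0.223 and 0.156 RPKM in EB3, and EB3-0 lay with the clones. Dab2 was at 1.01, 0.791 and 0.627 RPKM in the clones and at 0.722, 0.489 and 0.492 RPKM in EB3, with EB3-0 again inside the clone range. Their fold changes were 0.72 (interval -0.17 to 1.61) and 0.44 (interval -0.18 to 1.06). Over the 8 fitted endoderm members, 7 had a fold change above 0, where 49.1% of better expressed and 45.4% of lower genes did, and Hhex and Foxa2 lay near 0.

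Hnf4a, a nuclear receptor of visceral endoderm and liver, varied more than any other member with a mean of at least 1 RPKM. It was at 1.98, 0.0356 and 0.593 RPKM in clones A6, B8 and C4, and at 1.49, 1.09 and 0.967 RPKM in EB3. B8 had only 4 reads against 73 to 217 in the other 5 libraries, a deviation of -1.57 log2 units from their median, while A6 was the highest of all 6. The fold change was -0.56 with an interval of -1.66 to 0.55, and without B8 it was -0.02. Its 38 tested neighbours within 2 Mb had a median log2 difference from EB3 of -0.11 in B8, so its level in B8 was not shared by the genes around it. Sox3 and Hnf4a, both through B8, were the 2 of 14 members (5.16% of all tested genes) in which a library lay more than 1 log2 unit from the median of the others.

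Hhex, a homeobox gene of anterior endoderm and blood precursors, was at 4.95, 4.30 and 5.59 RPKM in the clones and at 4.57, 5.45 and 4.24 RPKM in EB3. The groups coincided, with a fold change of 0.05 and an interval of -0.30 to 0.41. Foxa2, a forkhead factor of endoderm and notochord, had 8 to 24 reads in the clones and 8 to 20 in EB3, with a fold change of 0.08 (interval -0.80 to 0.95). Afp, a serum protein of yolk sac and fetal liver, had 1 and 2 reads in A6 and B8 and 0 in the others, and Cer1, a secreted inhibitor of Nodal and BMP signals made by anterior endoderm, had 2 reads in EB3-2 alone. With reads taken as independent, 0 reads allow up to 0.0551 RPKM of Afp in each EB3 culture and up to 0.0686 RPKM of Cer1 in each clone. These limits are higher if mates were counted apart.

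**Figure D3:**
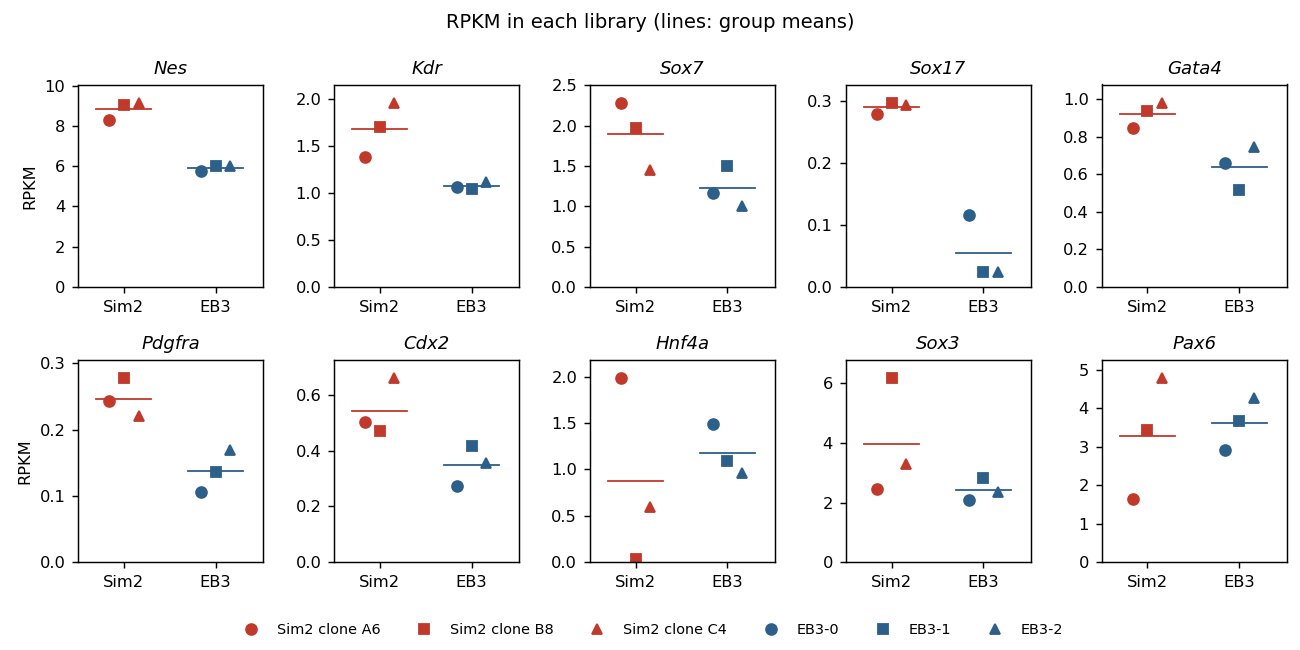
RPKM of 10 members in each library on axes that start at 0, red for the Sim2 clones and blue for EB3, with lines at the group means. The groups are apart for Nes, Kdr, Sox17, Gata4, Pdgfra and Cdx2 and overlap for Sox7, Hnf4a, Sox3 and Pax6, and the extreme values of Hnf4a (0.0356 RPKM) and Sox3 (6.17 RPKM) are both from B8.

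Kdr, which encodes the VEGF receptor of endothelial and blood precursors (chromosome 5, 76329299 to 76374453), had the highest level of the 5 mesoderm members. It was at 1.38, 1.70 and 1.96 RPKM in clones A6, B8 and C4, and at 1.06, 1.04 and 1.11 RPKM in EB3-0, EB3-1 and EB3-2. The groups did not overlap, and the EB3 cultures lay closer together than the clones. The means were 1.68 ± 0.287 and 1.07 ± 0.0350 RPKM (SD, n = 3 each). The fold change was 0.46 ± 0.17 (SE) on the log2 scale, with an interval of 0.07 to 0.85. Its adjusted p by limma was 0.210, and it ranged from 0.140 to 0.464 over the settings tried. The 2-sided exact permutation p was 0.1.

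Pdgfra, the PDGF receptor of mesoderm and primitive endoderm, was at 0.243, 0.278 and 0.221 RPKM in the clones and at 0.106, 0.137 and 0.169 RPKM in EB3. The groups did not overlap, and the fold change was 0.55 (interval -0.08 to 1.18, adjusted p = 0.355). Hand1, a bHLH factor of lateral mesoderm and trophoblast, was also higher in each clone than in each EB3 culture, but on 7, 8 and 10 reads against 5, 4 and 7, with a fold change of 0.38 (interval -0.28 to 1.03). Mesp1 and Tbx6, factors of early cardiac and of paraxial mesoderm, had 4 to 10 and 7 to 24 reads per library, with overlapping groups and fold changes of 0.10 (interval -0.74 to 0.93) and -0.19 (interval -1.03 to 0.65).

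The primitive streak genes showed no common direction. Eomes, a T-box factor of the streak and of trophoblast, was at 0.965, 1.60 and 1.55 RPKM in A6, B8 and C4 and at 1.03, 1.27 and 1.15 RPKM in EB3. A6 lay under all EB3 cultures and the other clones above them, and the fold change was 0.17 (interval -0.28 to 0.62). T, which encodes Brachyury, the T-box factor of streak and notochord, had 23, 25 and 21 reads in the clones and 8, 27 and 22 in EB3, so that EB3-0 alone was low (fold change 0.33, interval -0.52 to 1.17). Mixl1, a homeobox gene of the streak, had 15 to 23 reads in the clones and 18 to 36 in EB3, with a fold change of -0.43 (interval -1.16 to 0.30). Lhx1, a LIM homeobox gene of the anterior mesendoderm, had at most 4 reads.

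Gsc, a homeobox gene of the organizer, had 2, 4 and 4 reads in the clones and 2, 12 and 0 in EB3, too few to compare. Its surroundings on chromosome 12 differed in B8 alone. The 21 tested genes that start within 2 Mb of Gsc had a median log2 difference from the EB3 mean of -0.94 in B8, against 0.12 in A6 and 0.06 in C4. No other member had neighbours with a median past 0.5 in any clone, the next being Sox17, with 5 neighbours at -0.46 in B8.

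Of the genes of the posterior axis, Cdx1, a caudal-type homeobox gene activated by WNT and retinoic acid, was at 4.94, 3.75 and 4.39 RPKM in A6, B8 and C4. In EB3-0 it was at 5.21 RPKM, above all clones, and in EB3-1 and EB3-2 it was at 2.63 and 2.28 RPKM, below them. The fold change was 0.40 (interval -0.22 to 1.01, adjusted p = 0.488), and without EB3-0 it was 0.71 and was called (adjusted p = 0.0496, within a range of 0.0496 to 0.801 over the settings tried), in the setting that called 5.99% of all tested genes. Hoxb1, a HOX gene of the hindbrain and posterior streak, had 9, 2 and 0 reads in the clones and 8, 6 and 0 in EB3.

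Tfap2c, an AP-2 transcription factor of trophoblast and germ cell precursors, was the most abundant member. It was at 22.4, 14.7 and 28.1 RPKM in clones A6, B8 and C4, and at 24.5, 19.5 and 18.7 RPKM in EB3. The clones reached both lower and higher than EB3, and the fold change was 0.02 (interval -0.49 to 0.52). A stretch of 994 bases of its cDNA recurs at 96.1% identity on chromosome 4, so part of its reads could have been shared with that copy. Cdx2, the caudal-type homeobox factor that specifies trophectoderm, was at 0.502, 0.470 and 0.660 RPKM in the clones and at 0.273, 0.418 and 0.357 RPKM in EB3. The groups did not overlap, and the fold change was 0.52 (interval -0.09 to 1.13, adjusted p = 0.375). Gata3, a zinc-finger factor of trophectoderm, had 27 reads in B8 and 4 to 14 in the others. Elf5, an ETS factor of trophoblast stem cells, had 3, 0 and 2 reads in the clones and 4, 4 and 7 in EB3, lower in each clone but on too few reads for a test.

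Further genes of the same lineages were examined as lists. None of the 54 genes in these lists that could be fitted was called, with lowest adjusted p-values of 0.125 for the primitive streak, 0.218 for mesoderm, 0.165 for endoderm, 0.127 for trophectoderm and 0.0751 for the neural list. At an unadjusted p under 0.05 there were 3 of 7, 1 of 5, 5 of 14, 3 of 9 and 2 of 19 fitted genes, where the shares of all genes were 17.8% at a mean of at least 1 RPKM and 13.6% at 0.1 to 1 RPKM. Fold changes were above 0 in 3 of 7, 3 of 5, 10 of 14, 9 of 9 and 9 of 19 of them, where 49.1% and 45.4% of all genes were.

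The genes of these lists with an unadjusted p under 0.05, a choice made after the values were seen, were not all of 1 direction. Those of the primitive streak had lower means in the clones. They were Nkx1-2, a homeobox gene of the posterior epiblast (fold change -1.35, adjusted p = 0.125), Evx1, a homeobox gene of the posterior streak (-1.13, adjusted p = 0.268), and Sp5, a zinc-finger target of WNT signalling (-0.95, adjusted p = 0.214). Nkx1-2 was at 0, 0 and 0.0744 RPKM in A6, B8 and C4 and at 0.154, 0.197 and 0.282 RPKM in EB3. It passed the filter of 0.1 RPKM only through EB3 and was near the limit of detection. Evx1 was at 0.277, 0.567 and 0.0738 RPKM in A6, B8 and C4 and at 0.535, 0.780 and 0.719 RPKM in EB3, so that B8 lay inside the EB3 range. Sp5 was at 1.77, 1.17 and 4.44 RPKM in A6, B8 and C4 and at 4.44, 4.80 and 4.60 RPKM in EB3, so that C4 was close to EB3. The genes of mesoderm, endoderm and trophectoderm had higher means in the clones. They included Meox1 (0.48), a homeobox gene of somites, and Cubn (0.80), an endocytic receptor of visceral endoderm. Col4a1 (0.87), Col4a2 (0.88) and Lama1 (0.89), which encode basement membrane chains, were also among them. Lama1 was at 11.8, 32.89 and 16.27 RPKM in A6, B8 and C4 and at 6.964, 11.55 and 11.57 RPKM in EB3. B8 was also highest for Col4a1 and Col4a2, which are adjacent on chromosome 8. Col4a2 averaged only 0.613 RPKM over the EB3 cultures. It passed the filter of 1 RPKM only through the clones, which averaged 1.60 RPKM. Its place among the genes of that fit is thus not independent of its difference. In trophectoderm the genes were the keratins Krt8 (1.03) and Krt18 (0.64) and Gcm1 (0.92), a factor of placental labyrinth, which was higher in each clone (adjusted p = 0.127). Krt8 and Krt18 lie close together on chromosome 15 with Krt7 (0.93), another of the 9 fitted trophectoderm genes. Whether the genes around these keratins were shifted in the clones was not tested. Krt8 was at 7.95, 21.7 and 5.21 RPKM in A6, B8 and C4 and at 4.93, 3.79 and 4.86 RPKM in EB3, so that B8 was far above the other libraries. Krt18 was also highest in B8, at 11.86 RPKM against 4.274 to 5.778 RPKM in the other libraries. Of the neural list, Gfap, a filament protein of astrocytes, was higher (1.01, adjusted p = 0.146). Tubb3, a neuronal tubulin, was lower, at 70.4 to 95 RPKM in the clones and 113 to 133 RPKM in EB3 (-0.60), and had the lowest adjusted p of all these lists.

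**Figure D4:**
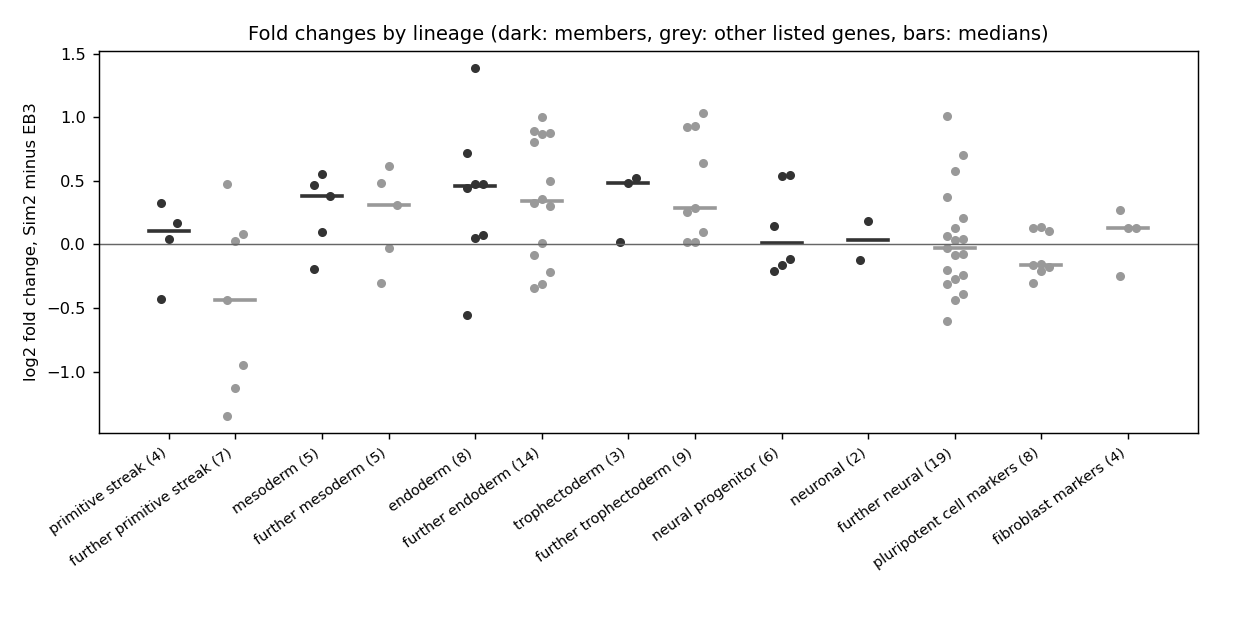
Log2 fold changes (Sim2 minus EB3) of the fitted genes of each list (the posterior axis, with 1 fitted gene, is not drawn), dark for members and grey for further genes, with the number of fitted genes in brackets and bars at the medians. The points of every list, pluripotent and fibroblast markers included, lie between -1.35 and 1.38, and none of them was called.

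The members also varied among libraries of the same group. The median SD within groups on the log2(RPKM + 0.5) scale was 0.30 for the 14 members with a mean of at least 1 RPKM, against 0.17 for all tested genes and 0.19 for tested genes under 30 RPKM. Within the clones it was 0.29 for the members and within EB3 it was 0.21. Hnf4a (0.80), Pax6 (0.50), Sox3 (0.44) and Cdx1 (0.41) spread most, the first 3 mainly among the clones and Cdx1 mainly among the EB3 cultures. Only Nes, Kdr, En2 and Hhex lay under the median of all tested genes.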

How the data were processed

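Messenger RNA of 6 cultures was sequenced in pairs on 1 lane. Per the submitters' processing notes and the study's methods, the authors mapped reads to mm9 with BWA, computed the exon coverage of each gene and deposited it as RPKM, with the cDNA length used. Aligner version, annotation release, strand and multi-mapped reads are not given in the sources used here. 0 columns of per-sample values were unused. RPKM times cDNA length was a whole multiple of 1 step per library for 100% of values (tolerance 0.01 of a step), which gave the reads. More genes had 2 reads than 1, so mates were probably counted apart and fragments are fewer. Floors of 3 reads cover counting error only, and they take reads as independent, so they are too low if mates were counted apart.

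Genes with a mean of at least 1 RPKM were tested on log2(RPKM + 0.5) with limma 3.58.1 in R 4.3.3 (lmFit, eBayes with trend, no covariates), with Benjamini-Hochberg adjustment over all 11595 genes. Genes at 0.1 to 1 RPKM came from a second fit on log2(RPKM + 0.1) over 14662 genes. An adjusted p under 0.05 is a call. These scales understate changes of low genes. The values supplied are RPKM, and no count model was fitted to the reads recovered from them. Single members also had a 2-sided exact permutation test of means.

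The members and lists were chosen with earlier results of these data known. Values in every library are given for members with a mean of at least 1 RPKM and for detected lower members whose groups did not overlap, and other members are given by class. For Sox17, Gata6 and Dab2, values were added after they were seen. Promoters came from the RefSeq table and were matched to mm9 with BLAST. Alternatives were other pseudocounts, filters and scalings, other eBayes settings, trends with cDNA length and GC content removed, EB3-1 and EB3-2 averaged, and each library left out. The values of 1 gene of the further endoderm list are not reported here.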

Additional observations from a re-analysis of the deposited data

How the results depend on the processing

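The 19 members named above 1 RPKM or with separate groups gave 278 values under the alternatives, of which 263 kept their direction and their side of the threshold, 12 reversed and 3 passed the threshold (Nes, Cdx1 and Sox17, all without EB3-0, where 5.99% of genes at 1 RPKM or more and 0.456% of genes at 0.1 to 1 RPKM were called). 14 of these members never reversed. With trends of cDNA length and GC content removed, Tfap2c was at -0.016 and Neurod1 at 0.025, and with EB3-1 and EB3-2 averaged Tfap2c was at -0.043. With 1 library left out, Tfap2c ranged from -0.19 to 0.27, Hhex from -0.033 to 0.145, Sox1 from -0.037 to 0.35, Pax6 from -0.49 to 0.16 and Neurod1 from -0.34 to 0.042 log2 units. The cause was not tested.

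Members called stayed at 0 under every setting that kept all 6 libraries. With 1 library left out, they ranged from 0 to 2 above 1 RPKM and from 0 to 1 at the low level. The 81 genes called over all genes tested became 23 with no filter, 289 with the length trend removed, 198 with length and GC trends removed, 6 with EB3-1 and EB3-2 averaged, 30 without the eBayes trend and 6 to 694 with 1 library left out, the 694 without EB3-0. The share of calls higher in the clones was 49.4%. It was 34.8% with no filter, 57.8% with length removed, 60.1% with length and GC removed, 66.7% with EB3-1 and EB3-2 averaged, and from 30% without A6 to 71.4% without C4. In the second fit the 78 calls became 29 with no filter, 190 with the length trend removed, 6 with EB3-1 and EB3-2 averaged and 6 to 550 with 1 library left out, the 550 without EB3-0. With a limit of 0.7 in place of 1, a single library stood apart in 4 members (14.3% of all tested genes). No paired analysis was possible because the clones and the EB3 cultures share no replicate numbers in the labels. Depth limits the 18 members under 10 reads in some library, for which few reads separate a difference from none.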
